A study of Mus musculus with 4 samples.

Results

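The Hox genes encode homeobox transcription factors that give cells their position along the head-to-tail axis of the embryo. In the mouse they stand in 4 clusters, Hoxa, Hoxb, Hoxc and Hoxd, on separate chromosomes. The 39 protein-coding Hox genes were taken by symbol from the RefSeq table of GRCm38.p6 (mm10), out of 21887 protein-coding genes on the placed chromosomes. Pcbp1 peaks were assigned to a cluster when the summit, the position of highest coverage, lay inside the cluster or within 50 kb of it. By this rule the clusters held 15 of 3494 EpiLC peaks and 8 of 12132 Naive peaks.

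Hox genes are numbered by paralogue group. Low numbers are used towards the head and high numbers towards the tail, and the order of the genes on the chromosome follows the order of their use. Pluripotent cells keep the clusters largely silent under Polycomb repressive complexes, while trithorax proteins and retinoic acid signalling act in their later activation. Pcbp1 is a KH-domain protein that binds C-rich RNA and C-rich single-stranded DNA.

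The cells were of E14 Tg2a, a mouse embryonic stem cell line. Primed epiblast-like cells (EpiLC) were derived with 12 ng/ml bFGF, 20 ng/ml Activin A and 1% KOSR for 48 hours. They came from the naive cells, which had spent 3 passages in serum-free N2B27 medium with LIF, the MEK inhibitor PD0325901 (1 uM) and the GSK3 inhibitor CHIR99021 (3 uM). Each condition had 1 Pcbp1 chromatin immunoprecipitation (ChIP) library and 1 input library, and 1 peak list per condition was analysed. With 1 library per condition there was no replicate error and no test between conditions. The intervals given below cover counting error only, and a peak that a list lacks is not evidence that Pcbp1 was absent.

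The labelled states were set against marker genes of pluripotency, using peaks only and not expression. The marker lists were chosen with earlier results of these data known, so the counts are not an independent check of the labels. A gene-end peak is a peak with its summit within 1 kb of either annotated end of a gene. By this measure 5 of 8 primed markers were marked in the EpiLC list and 0 in the Naive list, with Otx2, Dnmt3a and Zic2 unmarked in both. Of 10 naive markers, 1 was marked in EpiLC and 8 in Naive, with Esrrb and Dppa3 unmarked in both. Of all protein-coding genes, 5.61% were marked in EpiLC and 19.3% in Naive. Coverage was deeper in EpiLC, with a genome-wide background of 7.43 reads against 4.004 in Naive and a median summit pileup of 45 reads against 24. The deposited fold enrichment, the ratio of a summit's pileup to the background that the caller set there, had a median of 3.41 over all EpiLC peaks and 4.43 over all Naive peaks.

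The promoter windows nearest to the peaks of the clusters are shown first, because the peaks at Hoxd3, Hoxc4 and Hoxb2 adjoin them. They are RefSeq sequences of GRCm38.p6, each 250 bases before to 50 bases after a transcript start, written 5′ to 3′ on the strand of the named gene. Capitals mark runs of 4 or more C or 4 or more G, the letters that give a C-rich strand on one side or the other. Hoxd3 (chr2:74711743-74712042, plus strand), an anterior gene of the Hoxd cluster, begins near an EpiLC peak, and the long noncoding RNA gene Gm38462 (chr2:74712009-74712308, minus strand) begins on the opposite strand there. Hoxc4 (chr15:103034145-103034444, plus strand) begins near the peak that both lists held. Hoxb3os (chr11:96353345-96353644, minus strand) is a long noncoding RNA gene antisense to the Hoxb3 side of the cluster, and its promoter window lies within Hoxb2.
Hoxd3: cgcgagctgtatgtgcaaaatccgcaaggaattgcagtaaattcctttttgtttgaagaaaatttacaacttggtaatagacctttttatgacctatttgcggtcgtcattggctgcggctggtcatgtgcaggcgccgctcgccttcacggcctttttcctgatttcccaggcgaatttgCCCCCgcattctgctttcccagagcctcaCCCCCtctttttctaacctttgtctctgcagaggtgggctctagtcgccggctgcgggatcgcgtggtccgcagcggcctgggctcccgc
Gm38462: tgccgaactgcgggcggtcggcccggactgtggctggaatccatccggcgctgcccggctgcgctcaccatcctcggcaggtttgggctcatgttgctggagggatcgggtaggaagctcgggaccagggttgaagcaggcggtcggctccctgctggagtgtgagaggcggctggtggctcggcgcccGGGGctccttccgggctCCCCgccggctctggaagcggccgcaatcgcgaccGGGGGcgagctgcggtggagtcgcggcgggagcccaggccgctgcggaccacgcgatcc
Hoxc4: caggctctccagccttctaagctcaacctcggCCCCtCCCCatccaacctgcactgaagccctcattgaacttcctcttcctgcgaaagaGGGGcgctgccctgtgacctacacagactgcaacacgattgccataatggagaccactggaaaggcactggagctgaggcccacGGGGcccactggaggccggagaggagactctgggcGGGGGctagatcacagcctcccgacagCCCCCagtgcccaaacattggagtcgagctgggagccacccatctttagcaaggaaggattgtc
Hoxb3os: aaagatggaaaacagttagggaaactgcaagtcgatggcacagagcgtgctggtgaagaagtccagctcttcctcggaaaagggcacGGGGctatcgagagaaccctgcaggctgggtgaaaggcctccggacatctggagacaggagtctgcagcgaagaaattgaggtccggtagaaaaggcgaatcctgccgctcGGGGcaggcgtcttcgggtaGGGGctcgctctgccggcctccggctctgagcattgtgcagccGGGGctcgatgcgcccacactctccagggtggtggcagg

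The EpiLC peak at Hoxd3 covered the first 64 bases of the Gm38462 window and began 202 bp beyond the end of the Hoxd3 window. Its summit lay 341 bp downstream of the Hoxd3 start. One of the EpiLC peaks at Hoxb2 covered the first 129 bases of the Hoxb3os window. The Hoxc4 window lay 237 bp from the EpiLC peak and 157 bp from the Naive peak, with the summits 422 bp and 384 bp downstream of the Hoxc4 start. C-rich letters were common in these windows and also in promoters at large. The motif CCCCC, on either strand, was in the windows of both Hoxd3 and Hoxc4, in 20 of 24 windows of Hox genes (83.3%) and in 51.0% of all 32851 promoter windows. The shorter CCCC, which each CCCCC also holds, was in 95.8% of Hox windows and 86.4% of all windows, and CCCTCC was in 37.5% and 39.2%. Hox windows also had more CpG than promoters at large, with a median of 4.83 CpG per 100 bases against 2.33 over all windows, and a median GC content of 57.7% against 52.7%. The part of base composition in these motif shares was not tested. The Hox windows were mostly those of Hoxa and Hoxd genes. Hoxb2, Hoxb6, Hoxc6, Hoxc8 and Hoxc11, whose EpiLC peaks are described below, had no window among them.

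Pcbp1 summits were dense in the Hox clusters in EpiLC. The 4 windows held 15 EpiLC summits, or 1.68 per 100 kb (95% Poisson interval 0.941 to 2.77), against 0.127 per 100 kb over the chromosomes, a ratio of 13.2 (7.41 to 21.8). The 8 Naive summits gave 0.897 per 100 kb (0.387 to 1.77), against 0.444 over the chromosomes, a ratio of 2.02 (0.872 to 3.98). Set against all sequence within 50 kb of protein-coding genes, the ratios were 10.1 (5.63 to 16.6) in EpiLC and 1.46 (0.632 to 2.88) in Naive. For the 4 windows together, the intervals of EpiLC lay above 1 and those of Naive included 1. Neighbouring summits are not independent of each other, so the true uncertainty is wider than these intervals. Counting summits within 2 kb of each other once left 12 EpiLC and 6 Naive places.

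EpiLC summits made up 15 of 23 summits in the Hox windows, or 65.2% (95% exact binomial interval 42.7 to 83.6), against 22.2% of the 15547 summits on the placed chromosomes. The Hoxb window had 8 EpiLC and 5 Naive summits, Hoxc had 5 and 2, Hoxd had 2 and 0, and Hoxa had 0 and 1. Keeping only folds of 5 or more ended the EpiLC majority, with 1 EpiLC and 3 Naive peaks in the Hox windows, out of 434 EpiLC and 3978 Naive peaks in all.

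**Figure D1:**
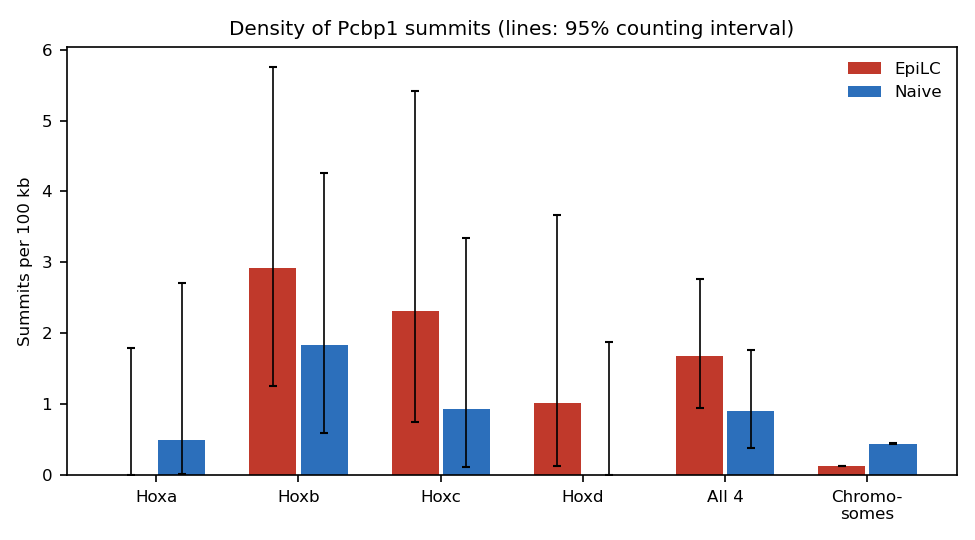
Pcbp1 summits per 100 kb in the window of each Hox cluster (the cluster and 50 kb on either side), in all 4 windows together and over the placed chromosomes, with EpiLC in red and Naive in blue. Bars are counts divided by length and lines are 95% Poisson counting intervals from 1 library each. The Hoxb window reached 2.92 in EpiLC and 1.83 in Naive, while the chromosomes had 0.127 and 0.444.

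The clusters were unequal, though small counts limit how far they can be ranked. Hoxb had 2.92 EpiLC summits per 100 kb (1.26 to 5.75), 23.0 times the EpiLC density over the chromosomes (9.93 to 45.3). Hoxc had 2.32 (0.753 to 5.41), 18.3 times that density (5.93 to 42.6). Hoxd had 1.02 (0.123 to 3.67), and its ratio of 7.999 had an interval of 0.969 to 28.9. Hoxa had 0, which allows up to 1.79 per 100 kb, and an overall EpiLC density would have placed only 0.261 summits in its window. The interval of Hoxa overlapped those of the other clusters. In Naive the densities were 0.487 in Hoxa, 1.83 in Hoxb, 0.927 in Hoxc and 0 in Hoxd, with intervals that all overlapped, and 0.875 summits in the Hoxd window would have matched the overall density. The Naive density of Hoxb was 4.11 times that over the chromosomes (1.33 to 9.59), an interval above 1. Against sequence within 50 kb of protein-coding genes it was 2.98 times (0.967 to 6.95). The Naive ratios to the chromosomes were 1.10 (0.0277 to 6.10) in Hoxa, 2.09 (0.253 to 7.54) in Hoxc and 0 (up to 4.22) in Hoxd.

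In both lists most summits of the Hox windows lay within the clusters, whose bodies made up 492 of the 892 kb of the windows. Of the 15 EpiLC summits, 14 were between the first and the last Hox gene of a cluster, and of the 8 Naive summits, 6 were. Within the cluster bodies the density was 2.84 per 100 kb in EpiLC (1.56 to 4.77) and 1.22 in Naive (0.447 to 2.65). The EpiLC summit farthest out within the 50 kb limit was 21.2 kb from Hoxb (fold 6.96), and the next one beyond the limit was 129 kb from Hoxc, near Smug1 (fold 2.73). The Naive summit farthest out within the limit was 3.89 kb from Hoxb (fold 6.46), and the next beyond it was 53.8 kb from Hoxa, in Evx1 (fold 3.74), a homeobox gene that neighbours the cluster.

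**Figure D2:**
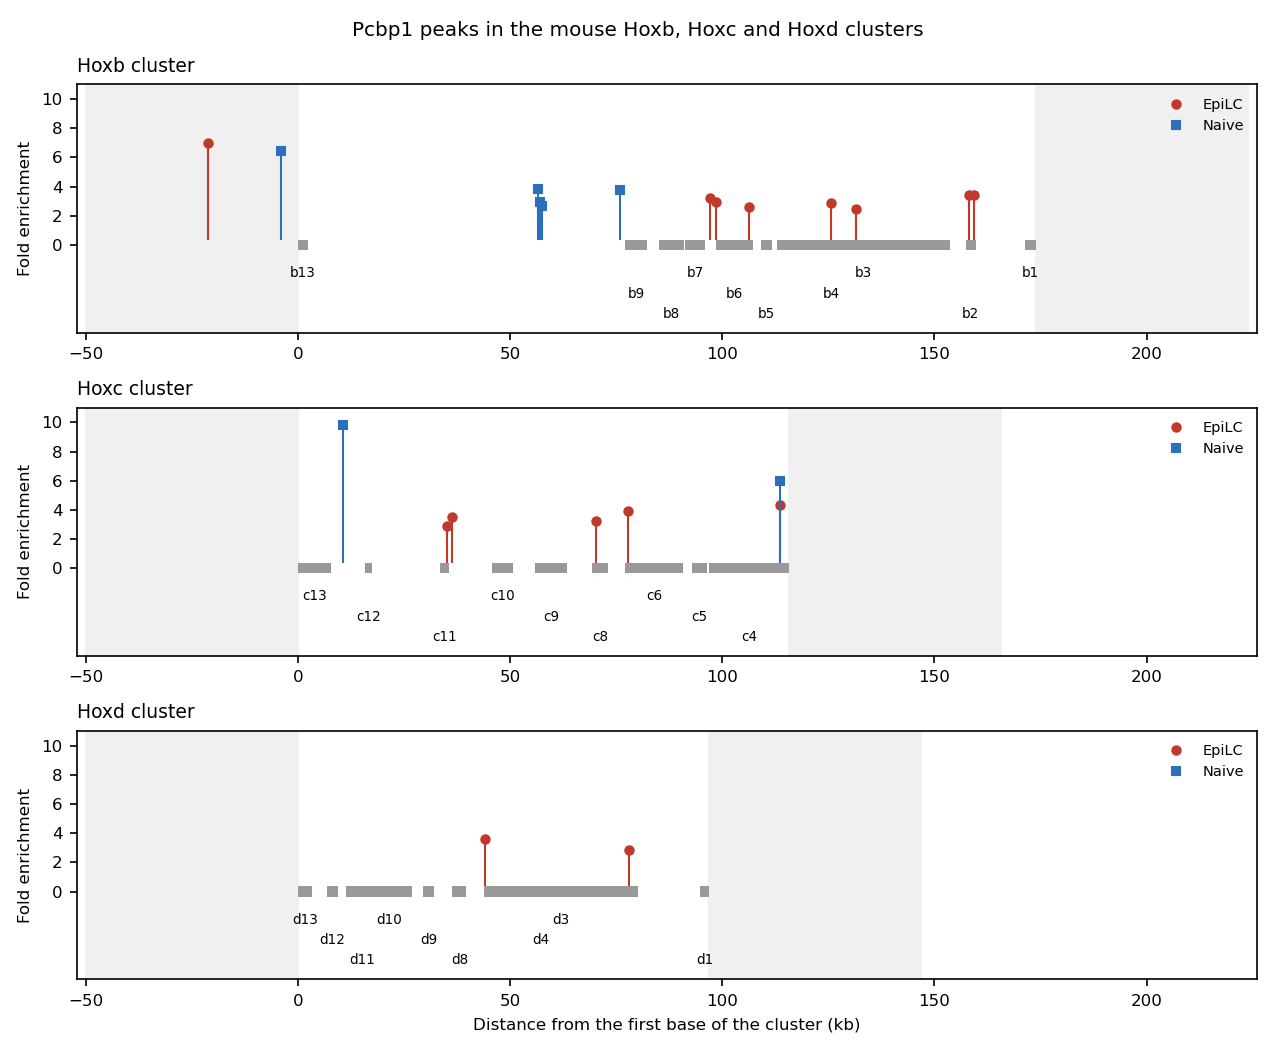
Map of the Hoxb, Hoxc and Hoxd clusters, with the distance from the first base of each cluster in kb on the horizontal axis and the deposited fold enrichment of each peak on the vertical axis. Red circles are EpiLC peaks, blue squares are Naive peaks, grey boxes are Hox genes (labelled below, b2 for Hoxb2) and the shaded bands are the 50 kb flanks. In Hoxb the Naive peaks stand at or left of 76.0 kb and the EpiLC peaks of the cluster body at or right of 97.0 kb.

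In the Hoxb cluster (chromosome 11, 96194316 to 96368254) the peaks of the lists occupied separate stretches. The 7 EpiLC summits of the cluster body lay from 97.0 to 159 kb from its first base, between Hoxb7 and the Hoxb2 gene. The 4 Naive summits of the body lay from 56.6 to 76.0 kb, in the long interval between Hoxb13 and Hoxb9. No peak of one list overlapped a peak of the other in this cluster, and the nearest summits within the body were 21020 bp apart.

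Hoxb2 (chromosome 11, 96351632 to 96354020), a gene of hindbrain patterning, had a pair of EpiLC peaks inside it. Their folds were 3.45 (95% counting interval 2.39 to 4.83) and 3.43 (2.42 to 4.73), and the nearest Naive summit was 81318 bp from its ends. The summits lay 712 bp and 329 bp from an end of the gene. Hoxb6 (chromosome 11, 96292814 to 96301569), which acts in the trunk, also held a pair, at 2.97 (1.99 to 4.27) and 2.62 (1.78 to 3.73) in EpiLC, 95 bp and 867 bp from a gene end. The nearest Naive summit was 22500 bp from a Hoxb6 end. By fold, the 3.45 peak of Hoxb2 ranked 1682 of 3494, near the middle of the EpiLC list, and the 2.62 peak of Hoxb6 ranked 2949.

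A peak of 3.23 (2.29 to 4.44) in EpiLC lay 1171 bp from the end of Hoxb7, just beyond the 1 kb limit of a gene-end peak. Hoxb3 (chromosome 11, 96307101 to 96347930), whose annotated gene spans 40.8 kb and encloses Hoxb4, held EpiLC peaks of 2.86 (1.95 to 4.06) and 2.45 (1.64 to 3.52). The first of them was also inside Hoxb4, another gene of the hindbrain and neck, 1606 bp from its end. These were weak peaks, at percentiles 24.4 and 10.3 of the EpiLC folds. Hoxb1, the gene at the anterior end of the cluster, had its nearest EpiLC summit 12055 bp from an end.

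The strongest EpiLC peak of any Hox window lay outside the cluster, 21213 bp from Hoxb13 and 6921 bp from Ttll6, a tubulin polyglutamylase gene. It had a fold of 6.96 (5.49 to 8.72) and ranked 138 of 3494. On the same side, 3893 bp from Hoxb13, a posterior gene known from tail and prostate, Naive had a peak of 6.46 (4.56 to 8.92). The summits were 17320 bp apart.

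The other Naive peaks of Hoxb were weaker. A group of 3 stood within 1 kb of each other at the long noncoding RNA gene Gm53, with folds of 3.84 (2.56 to 5.56), 2.92 (1.86 to 4.40) and 2.70 (1.66 to 4.19), over a local background 1.50 to 1.63 times the genome-wide one. Being adjacent, they are better read as one place. The fourth, of 3.77 (2.37 to 5.72), lay 1016 bp from the end of Hoxb9, which acts in the thorax, and so missed the 1 kb limit narrowly.

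In the Hoxc cluster (chromosome 15, 102921131 to 103036856) the EpiLC peaks were spread from Hoxc11 to Hoxc4, and the strongest Naive peak of the Hox windows stood at the posterior end. Hoxc11 (chromosome 15, 102954526 to 102956701), a posterior gene, had EpiLC peaks of 2.87 (2.07 to 3.88) inside it, 363 bp from an end, and 3.51 (2.39 to 4.99) beside it, 790 bp from an end. Hoxc8 (chromosome 15, 102990539 to 102994275), a gene of the thorax, had 3.22 (2.37 to 4.28) in EpiLC, in the widest EpiLC peak of the Hox windows at 867 bp. Hoxc6 (chromosome 15, 102998226 to 103011882), another thoracic gene, had 3.95 (2.79 to 5.45). The nearest Naive summit was 22683 bp from an end of any of these 3 genes.

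Hoxc4 (chromosome 15, 103018097 to 103036856), an anterior gene, was the Hox gene with a peak in both lists. The EpiLC peak had a fold of 4.36 (3.28 to 5.68) and the Naive peak 5.98 (4.28 to 8.15), with summits 38 bp apart. They were at percentiles 79.2 and 81.9 of their lists. Since the summits were 2039 bp and 2077 bp from the annotated ends, this was not a gene-end peak, although it lay close to the transcript start whose promoter is printed above.

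Between Hoxc13, a gene of hair and nails, and Hoxc12 stood a Naive peak of 9.79 (7.27 to 12.9), which ranked 314 of 12132. It was 1075 bp wide, the widest of the Naive peaks in the Hox windows, with a pileup of 48 reads at a background of 4.004. Its summit was 3029 bp from Hoxc13, and the nearest EpiLC summit was 24495 bp away. The lowest EpiLC fold called at a like background was 2.84, so a peak of this fold would have been within what the EpiLC list called.

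The Hoxd cluster (chromosome 2, 74668225 to 74765142) held peaks of EpiLC only in these lists, both in Hoxd3. Hoxd3 (chromosome 2, 74711993 to 74748271), which shapes the neck vertebrae, had 3.62 (2.58 to 4.96) near its start and 2.83 (1.88 to 4.10) near its far end, 2062 bp from it. The nearest Naive summit to any Hoxd gene was 298184 bp away, at the Hoxd1 side. Hoxd8 to Hoxd13, the posterior side of the cluster, had their nearest EpiLC summit 4401 bp from a gene end.

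The Hoxa cluster (chromosome 6) held no EpiLC summit, and its window held 1 Naive summit. None of the 11 Hoxa genes carried a gene-end peak in EpiLC or in Naive.

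**Figure D3:**
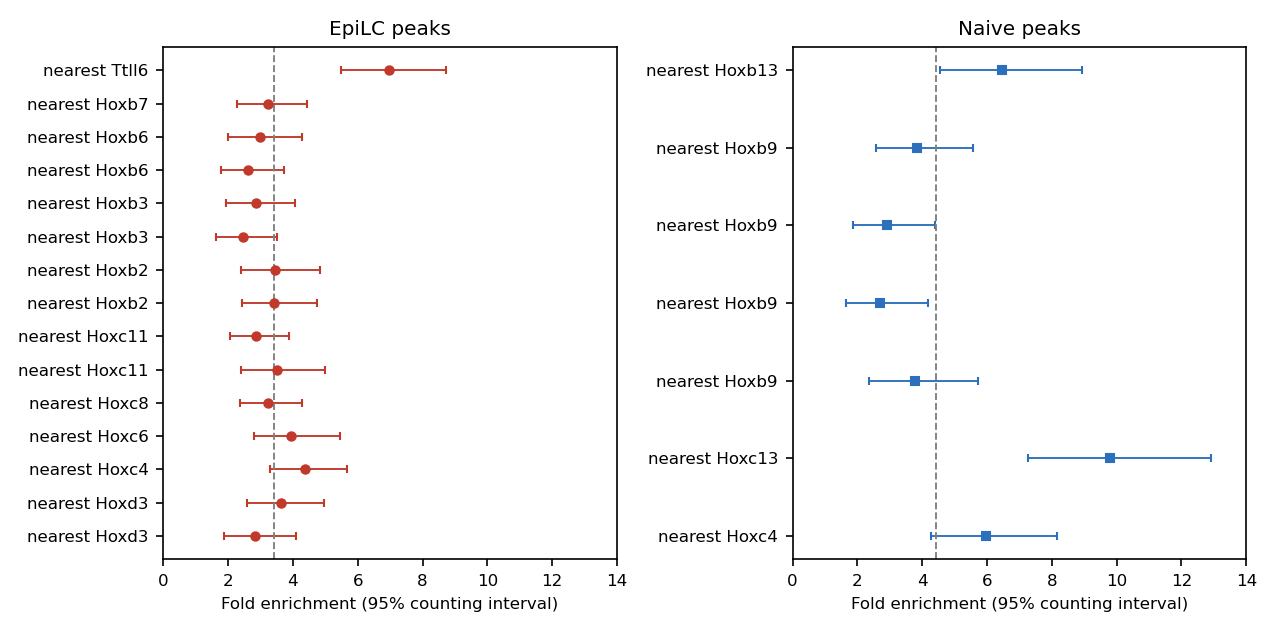
Deposited fold enrichment of each peak in the windows of Hoxb, Hoxc and Hoxd, EpiLC on the left and Naive on the right, ordered by cluster and position and named by the nearest protein-coding gene. Points are single peaks, lines their 95% Poisson counting intervals and dashed lines the median fold of the whole list, 3.41 in EpiLC and 4.43 in Naive. Most Hox intervals cross the list median, and those of the peaks nearest Ttll6 (6.96, EpiLC), Hoxb13 (6.46, Naive) and Hoxc13 (9.79, Naive) stand wholly to its right. The intervals of the Naive peaks of 2.92 and 2.70 at Gm53, nearest Hoxb9, stand wholly to its left.

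As a set, the Hox peaks had folds close to the medians of their lists. In EpiLC their median fold was 3.23 beside 3.41 for all peaks, and 7 of 15 were above the list median. In Naive their median was 4.37 beside 4.43, with 4 of 8 above. Median widths were 317 bp in EpiLC and 418 bp in Naive, beside 308 bp and 362 bp over the lists. Local backgrounds at the summits were 1.02 to 1.79 times the genome-wide one in EpiLC, with a median of 1.28 beside 1.66 for all EpiLC peaks. In Naive they were 1.00 to 1.63 times, with a median of 1.26 beside 1.11.

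The lists shared 1 peak in the Hox windows, the one at Hoxc4. Of the EpiLC peaks in the Hox windows, 1 of 15 overlapped a Naive peak (6.67%), against 48.3% over the whole EpiLC list. Among the Naive peaks the share was 1 of 8 (12.5%), close to the 13.7% over the Naive list. Whether a peak could have been called in the other list was judged from the lowest fold that list called at a local background within 0.1 of the same relative level. Of the 14 EpiLC peaks with no Naive partner, 11 had a fold above that level. The exceptions were the 2.62 peak in Hoxb6, the 2.45 peak in Hoxb3 and the 2.83 peak in Hoxd3, which a Naive peak of equal fold would not have passed. All 7 Naive peaks with no EpiLC partner were above it. Several of the EpiLC folds were only slightly above it, and the part of sampling in the shallower Naive library was not tested.

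Counted by gene, gene-end peaks marked 6 of 39 Hox genes in EpiLC (15.4%), against 5.61% of all protein-coding genes, and 0 of 39 in Naive, against 19.3%. The genes were Hoxb2, Hoxb6, Hoxc6, Hoxc8, Hoxc11 and Hoxd3. Within 3000 bp of a gene end the counts were 10 in EpiLC (25.6%, against 7.53% of all genes) and 3 in Naive (7.69%, against 23.8%). With at least 1 summit inside the gene there were 9 Hox genes in EpiLC (23.1%, against 6.93%) and 1 in Naive (2.56%, against 21.3%). Within 50 kb of the gene there were 28 in EpiLC (71.8%, against 26.3%) and 22 in Naive (56.4%, against 58.1%). Hox genes lie close together and share the peaks around them, so these shares do not rest on 39 separate loci. Of the 22 Hox genes in the promoter table, 2 had an EpiLC summit within 1 kb of a transcript start (9.09%, against 5.81% of all listed genes) and 1 a Naive summit (4.55%, against 20.6%). Most of these 22 were Hoxa and Hoxd genes. Hoxb2, Hoxb6, Hoxc6, Hoxc8 and Hoxc11 had no listed start, so the shares by transcript start leave out most Hox genes with an EpiLC gene-end peak.

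By paralogue group, gene-end peaks in EpiLC were at 2 of 12 genes of groups 1 to 4 (16.7%) and 3 of 11 genes of groups 5 to 8 (27.3%). Groups 9 to 13 had them at 1 of 16 genes (6.25%), near the 5.61% of all protein-coding genes. By cluster they were at 0 of 11 Hoxa, 2 of 10 Hoxb (20.0%), 3 of 9 Hoxc (33.3%) and 1 of 9 Hoxd genes (11.1%). These counts are too small to rank the groups or the clusters. Paralogues of different clusters shared an EpiLC gene-end peak in group 6 only. Counted inside the gene, EpiLC summits were also common to paralogues of groups 3 and 4. Hoxb3 and Hoxd3 held 2 each, and Hoxb4 and Hoxc4 held 1 each. The summit in Hoxb4 was also counted in Hoxb3, so groups 3 and 4 are not separate here. Hoxb3 and Hoxd3 are long, at 40.8 and 36.3 kb. Hoxa3, at 44.0 kb, Hoxa4 and Hoxd4 held 0. Of all protein-coding genes, 6.93% held an EpiLC summit. In group 6, Hoxb6 and Hoxc6 both carried an EpiLC gene-end peak and Hoxa6 carried none, while in groups 2, 3, 8 and 11 a single member had one.

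**Figure D4:**
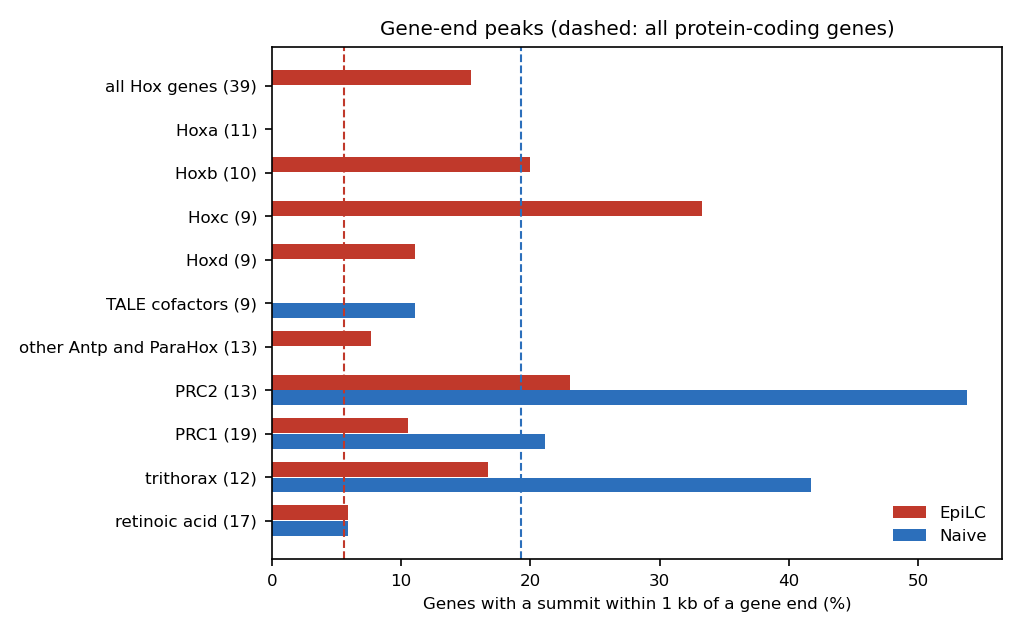
Percent of genes with a summit within 1 kb of either annotated end, for all Hox genes, each cluster and each list of Hox regulators, with the number of genes in parentheses. EpiLC bars are red and stand above the blue Naive bars, and dashed lines mark all protein-coding genes, 5.61% in EpiLC and 19.3% in Naive. Hox genes have bars in EpiLC alone, while genes of PRC2 reach 23.1% in EpiLC and 53.8% in Naive.

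Some of the genes that regulate the clusters had gene-end peaks in both lists. Of 13 genes of Polycomb repressive complex 2 (PRC2), which methylates histone H3 at silent Hox genes, gene-end peaks marked 3 in EpiLC (23.1%) and 7 in Naive (53.8%). The shares of all protein-coding genes were 5.61% in EpiLC and 19.3% in Naive. Eed, a core subunit, had 3.54 (2.67 to 4.59) in EpiLC and 7.38 (5.23 to 10.1) in Naive. The accessory subunit Mtf2 had 3.44 (2.63 to 4.43) in EpiLC and 7.77 (5.69 to 10.4) in Naive. The catalytic subunit Ezh2 had 4.89 in Naive, the core subunits Suz12 and Rbbp4 had 5.58 and 6.45 in Naive, and none of these had one in EpiLC. Epop, an accessory gene, had 5.21 (4.14 to 6.48) in EpiLC and no gene-end peak in Naive.

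Of 19 genes of Polycomb repressive complex 1, gene-end peaks marked 2 in EpiLC (10.5%) and 4 in Naive (21.1%), shares set beside 5.61% and 19.3% of all genes. Phc1, a polyhomeotic subunit, had 4.25 (3.30 to 5.39) in EpiLC and 6.58 (4.56 to 9.20) in Naive. Kdm2b, which brings a variant of the complex to CpG-rich DNA, had 2.66 in EpiLC alone, and Pcgf1 of the same variant had 6.04 in Naive alone. Rybp and Cbx6 had 3.32 and 3.13 in Naive.

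Of 12 trithorax genes, gene-end peaks marked 2 in EpiLC (16.7%) and 5 in Naive (41.7%), beside 5.61% and 19.3% of all genes. Kmt2a, the histone methyltransferase that maintains Hox expression (also known as Mll), held one of the strongest peaks of the series, at 11.4 (9.23 to 13.9) in EpiLC and 18.6 (15.0 to 22.7) in Naive, ranks 16 and 20 of their lists. Rbbp5, a core subunit of the same enzyme family, had 6.49 (5.14 to 8.09) in EpiLC and 8.39 (6.08 to 11.3) in Naive. Ash1l, Men1 and Wdr5 had 4.65, 3.74 and 3.16 in Naive.

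Gene-end peaks at other partners of the Hox genes were counted beside the same shares of all genes, 5.61% in EpiLC and 19.3% in Naive. Of 9 TALE homeobox genes, whose proteins bind DNA together with Hox proteins, 0 had one in EpiLC and 1 in Naive (11.1%), Meis2 at 3.08. Of 13 related homeobox genes outside the clusters, including the ParaHox genes, 1 had one in EpiLC (7.69%), Gsx1 at 3.53 (2.50 to 4.84), and 0 in Naive. Of 17 genes of retinoic acid transport, synthesis, degradation and reception, 1 had one in EpiLC, Crabp2 at 4.37 (3.24 to 5.78), and 1 in Naive, Rxrb at 4.04 (2.62 to 5.98), each 5.88% of the list.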

How the data were processed

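Pcbp1 ChIP-seq peaks were analysed from 1 EpiLC and 1 Naive library. Per the submitters' processing notes, fastp, Bowtie2, Picard and MACS2 were used with GRCm38 (mm10), with neither versions nor roles stated. The caller's control is also not stated, and the input libraries were not analysed here. The authors' deposited fold is a ratio of pileup to background. Each peak also had a deposited −log10 p-value and a deposited −log10 q-value, the smallest q entry being 2.02 in each list. The deposited score, 10 times −log10 q, was not used. Other deposited columns gave the peak ends and summit.

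Depth in reads was not stated. Pileup and background were solved from fold and p-value as (pileup + 1) / (background + 1) and the Poisson tail, within 0.001 of the deposited −log10 p, for 100.0% of peaks. The lowest background stood for the genome-wide one. Steps were tested on simulated data. The software was scipy 1.17.1, numpy 2.4.6 and pandas 2.3.3 in Python 3.11.15, with matplotlib 3.10.9.

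Genes came from RefSeq GRCm38.p6, without exons. Chromosome length was taken to the last annotated gene end, since no genome was used. Members and gene lists were chosen with earlier results of these data known. Named were every peak of the Hox windows, except 1 in the Hoxa window that is not reported here, every Hox gene with a gene-end peak, and up to 6 genes per regulator list by fold. Fold and q thresholds, list length, flanks, distances and overlap rules were varied.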

Additional observations from a re-analysis of the deposited data

How the results depend on the processing

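At a fold of at least 5, which left 434 of 3494 EpiLC and 3978 of 12132 Naive peaks, the counts in the Hox windows were 1 EpiLC and 3 Naive. Gene-end peaks were then at 0 of 39 Hox genes in EpiLC and 0 in Naive, beside 0.676% and 6.83% of all genes, and overlaps were 0% in EpiLC and 0% in Naive, since the EpiLC peak at Hoxc4 was below the limit. At a −log10 q of at least 5, which left 2786 EpiLC and 9117 Naive peaks, the counts were 10 EpiLC and 5 Naive peaks. Gene-end peaks were then at 12.8% of Hox genes in EpiLC, beside 4.59% of all genes, and at 0% in Naive, beside 15.4%. With the Naive list shortened to 3494 peaks, Naive kept 3 peaks beside 15 in EpiLC. That shortened list had gene-end peaks at 0 of 39 Hox genes, beside 5.45% of all genes. Within 3000 bp of gene ends, 10 Hox genes had a peak in EpiLC and 3 in Naive. Counts stayed within 1.5 times under flanks of 0, 20 and 100 kb, under any overlap of peak and window, and with summits within 2 kb counted once, an alternative chosen after seeing the data. Reciprocal overlap of 50% and summits within 500 bp gave the same shared peak. No paired analysis was possible because each condition had 1 library. At the genome-wide background the lowest fold called was 2.85 in EpiLC and 2.997 in Naive. Whether depth kept weak EpiLC peaks out of the Naive list was not tested.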

Other observations

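Of 29 long noncoding RNA genes in the Hox windows, 4 had a summit within 1 kb of a gene end in EpiLC (13.8%, beside 2.22% of all 12727 such genes) and 2 in Naive (6.90%, beside 6.42%). The EpiLC genes were Hoxb5os and Hoxb3os in Hoxb, Gm29905 beside Hoxc6 and Gm38462 beside Hoxd3, and the Naive genes were Gm53 between Hoxb13 and Hoxb9 and Evx1os, whose summit lies just beyond the 50 kb limit of the Hoxa window. The EpiLC summits at Hoxb3os, Gm29905 and Gm38462 were those of gene-end peaks already counted at Hoxb2, Hoxc6 and Hoxd3. They are therefore not separate from the counts of Hox genes. Hoxb5os, antisense to the middle of the Hoxb cluster, held 3 EpiLC summits along its length and 0 Naive summits. All 3 were also described above, as the pair in Hoxb6 and the peak 1171 bp from the end of Hoxb7. Hotair, the long noncoding RNA gene next to Hoxc11, had its nearest EpiLC summit 8392 bp from an end and its nearest Naive summit 12219 bp from one.

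The 6 microRNA genes of the windows had no peak within 1 kb in either list. The nearest was Mir10a, next to Hoxb4, with an EpiLC summit 2758 bp away, and in Naive the nearest was Mir196a-1, beside Hoxb9, at 5049 bp. Of all 1228 microRNA genes, 1.79% had such a peak in EpiLC and 5.46% in Naive.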
